A study of Mus musculus with 8 samples.

Results

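The circadian clock genes described here were 10 transcripts picked by name from the raw count table: Arntl, Per1, Per2, Per3, Dbp, Nr1d1, Nr1d2, Ciart, Tef and Bhlhe41. All 10 were among its 55291 rows, and all 10 were among the 19470 genes that passed the filter on low counts and were tested. They were measured by RNA sequencing of whole lumbar spinal cord from 8 male mice on a C57BL/6J background. Every mouse, controls included, carried the SOD1G93A transgene, which encodes a mutant human superoxide dismutase and gives mice a motor neuron disease used as a model of amyotrophic lateral sclerosis (ALS). Every mouse also carried 1 Cre allele at Cx3cr1 (Cx3cr1 Cre/+) and was given tamoxifen in 5 injections at 12 weeks of age. E5568, E5248, E5231 and E1776 were Ager fl/fl and made up the 4 Ager-deleted mice, and the 4 Cre control mice, E6732, E6578, E5642 and E5386, were Ager+/+. Ager encodes RAGE, the receptor for advanced glycation end products, and the Cre is active in microglia and in other cells that use Cx3cr1. The labels give an age of 120 days, whereas the study's text places the sequenced cords at humane endpoint. The mice lived in a cycle of light and dark, and the time of day at which each cord was taken is not given in the sources used here.

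The circadian clock is a feedback loop that runs in nearly every cell. Arntl (also named Bmal1) and its partner Clock switch on the Per and Cry genes, Nr1d1, Nr1d2, Dbp, Tef, Ciart and Bhlhe41. Their products then act back: PER, CRY, CIART and BHLHE41 proteins restrain the Arntl-Clock complex, and the REV-ERB receptors encoded by Nr1d1 and Nr1d2 repress Arntl itself. Arntl RNA is therefore high at the time of day when Dbp, Nr1d1 and Per RNA are low, and within the second set Nr1d1 commonly crests ahead of Dbp, and Dbp ahead of Per2. Because these genes move strongly with the time of day, their levels in a cord can carry a trace of when it was taken. With no time of day given for these cords, what their levels reflect was not tested.

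The motifs that carry these inputs are short, and a few stretches of promoter that hold them are shown. They are RefSeq promoters on GRCm38.p6, written 5′ to 3′ along the strand of the gene, with positions counted from the first transcribed base. The capitals mark an E-box (CACGTG, bound by Arntl-Clock), a D-box (TTATGTAA or TTATGCAA, bound by DBP and TEF) or the core of a ROR element (TAGGTCA or TGGGTCA, bound by REV-ERB and ROR receptors), each searched on both strands.

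Ciart, chr3:95882259-95882358, minus strand, bases -130 to -31: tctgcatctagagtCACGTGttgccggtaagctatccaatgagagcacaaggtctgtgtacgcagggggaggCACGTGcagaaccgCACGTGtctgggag

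Per1, chr11:69098769-69098938, plus strand, bases -180 to -11: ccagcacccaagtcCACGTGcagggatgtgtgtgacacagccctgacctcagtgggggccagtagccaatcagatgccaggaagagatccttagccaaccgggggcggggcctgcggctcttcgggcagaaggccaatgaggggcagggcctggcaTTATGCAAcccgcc

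Per3, chr4:151044805-151044885, minus strand, bases -220 to -140: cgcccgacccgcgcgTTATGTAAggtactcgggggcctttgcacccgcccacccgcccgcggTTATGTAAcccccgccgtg

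Arntl, chr7:113207530-113207559, plus strand, bases 20 to 49 of its second listed start site: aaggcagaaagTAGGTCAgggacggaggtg

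Promoters were at hand for 9 of the 10 members, as 12 windows of 250 bases before and 50 bases after a start site. An E-box stood in windows of 4 members (Per1, Ciart, Tef and Bhlhe41), and in 7.15% of all 32851 promoter windows. The Ciart window held 3 of them. A D-box stood in windows of 2 members, Per1 and Per3, and in 1.66% of all windows. The ROR core was found for 1 member, Arntl, and in 6.45% of all windows. The cyclic AMP element TGACGTCA was found for 0 members and in 1.79% of windows. The counts are of members, and Arntl, Per1 and Tef had 2 windows each, whereas the shares are of single windows. Counts and shares are therefore not in the same unit. These are matches of letters inside one window, not measurements of binding. The windows of Dbp, Nr1d1 and Nr1d2 held no match to any of these motifs.

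Total counts were 31148047 to 40324897 per mouse, so that 3 counts were worth at most 0.0963 CPM, far under every member. CPM are counts scaled to the library size, here after TMM normalization. Ager itself, the targeted gene, was at 0.889, 1.51, 1.02 and 1.34 CPM in Ager-deleted mice and at 1.53, 2.22, 2.18 and 2.41 CPM in controls. The 2 genotypes did not overlap, though Ager did not pass correction (adjusted p = 0.252, edgeR exact test). Markers of neurons, oligodendrocytes, astrocytes and microglia were present in every cord, with summed microglial levels of 483 to 747 CPM in Ager-deleted mice and 592 to 669 CPM in controls. Genes of other tissues stood out in 3 control cords. The summed level of 12 skeletal muscle genes was 943 CPM in E5386 and 1552 CPM in E5642 against 8.92 to 29.1 CPM elsewhere, and that of 7 liver genes was 619 CPM in E6732 against 1.34 to 2.66 CPM elsewhere. E5386 also held 141 CPM of 6 adipose genes, against 0.889 to 6.95 CPM elsewhere. In whole cord, fewer cells of one type and less RNA per cell cannot be told apart.

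Per kilobase of exon, Tef was the most abundant member at 30.2 ± 4.21 CPM per kb (SD, n = 8 mice). Nr1d1 (19.2 ± 5.66), Nr1d2 (18.5 ± 3.58), Per1 (15.99 ± 1.95) and Bhlhe41 (13.2 ± 1.29 CPM per kb) followed. Nr1d1 stood above Nr1d2 in only 3 of 8 mice, so these paralogs had no fixed order. Dbp came next at 10.1 ± 5.69 CPM per kb and was above Per3 in 8 of 8 mice. The scarcest were Per3 (4.75 ± 1.03), Ciart (4.31 ± 1.56), Per2 (3.95 ± 0.983) and Arntl (2.84 ± 0.711 CPM per kb), and Ciart was above Per2 in 4 of 8 mice.

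The members divided the mice along a line that ran across the genotypes, with Arntl at one end and Dbp at the other. Dbp, an output transcription factor of the clock, reached 61.8 CPM in the Ager-deleted mouse E5568, 45.9 CPM in the control E6732 and 36.2 CPM in the control E6578. It was 13.99 CPM in the control E5642, 15.5 CPM in both the control E5386 and the Ager-deleted mouse E5248, and between these at 23.0 CPM in E1776 and 30.3 CPM in E5231. Thus Dbp spanned 4.42-fold over the 8 mice, and both its high and its low end held mice of each genotype.

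Arntl, the positive arm, ran the other way. It was lowest, at 13.1, 14.9 and 18.7 CPM, in the same 3 mice where Dbp was highest (E5568, E6732 and E6578). It was 22.6 CPM in E5231, 24.01 CPM in E5248, 24.5 CPM in E1776, 24.997 CPM in E5386 and 28.5 CPM in E5642. The ratio of Dbp to Arntl was 4.74 in E5568 and 0.491 in E5642, with 3.08 in E6732, 1.94 in E6578, 1.34 in E5231, 0.940 in E1776, 0.646 in E5248 and 0.618 in E5386.

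Ciart, a repressor of Arntl-Clock whose promoter holds the cluster of E-boxes above, was 17.2 CPM in E5568, 12.4 CPM in E6578 and 10.3 CPM in E6732. In the other 5 mice it was 6.27 to 8.23 CPM, so that the same 3 mice again stood apart. Tef, a paralog of Dbp, was also highest in E5568 (300 CPM), E6578 (266 CPM) and E6732 (248 CPM), over a narrower span of 1.49-fold.

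**Figure D1:**
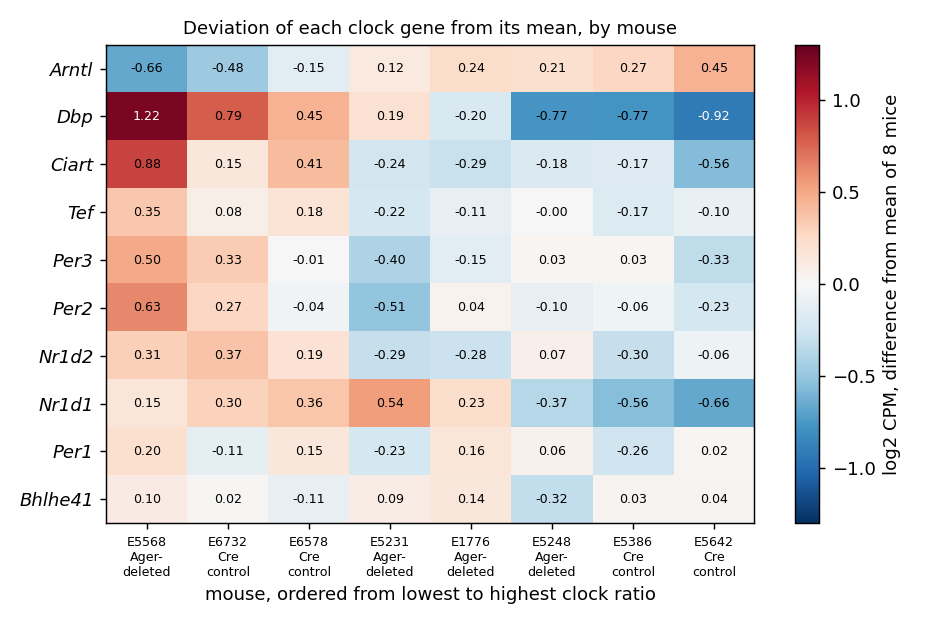
Difference of each clock gene (rows) from its own mean over 8 mice, in log2 CPM, for each mouse (columns, ordered from the lowest to the highest clock ratio, with its genotype). Dbp runs from 1.22 in E5568 to -0.92 in E5642 while Arntl runs from -0.66 to 0.45; Nr1d1 is highest in E5231, where Per2 and Per3 are lowest.

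Among the Period genes, which encode the repressors of the loop, Per3 and Per2 followed Dbp only at its top. Per3 was 63.2 CPM in E5568 and 56.4 CPM in E6732, against 33.9 to 45.6 CPM in the other 6 mice. Per2 was 34.9 CPM in E5568 and 27.2 CPM in E6732, against 15.8 to 23.3 CPM in the other 6. E6578, which had the third highest Dbp, was not set apart by either gene, at 44.5 CPM for Per3 and 21.9 CPM for Per2. Per1 varied little, from 74.9 CPM in E5386 to 103 CPM in E5568, or 1.38-fold.

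The paralogous repressors Nr1d1 and Nr1d2 did not order the mice alike. Nr1d1 was 82.5 CPM in E5231, 72.8 CPM in E6578, 69.7 CPM in E6732, 66.5 CPM in E1776 and 63.0 CPM in E5568. Lower values of 43.7 CPM in E5248, 38.5 CPM in E5386 and 35.8 CPM in E5642 came from the 3 mice that were also lowest for Dbp. Nr1d2 was highest in E6732 (127 CPM), E5568 (122 CPM), E6578 (112 CPM) and E5248 (103 CPM), and was 79.6 to 94.2 CPM in the others. The Ager-deleted mouse E5231 was the plainest case of the difference: it was highest of all mice for Nr1d1 and lowest of all for Per2, Per3 and Tef. Its ratio of Per2 to Nr1d1 was 0.192, whereas the other 7 mice had 0.301 to 0.565. The ratio of Dbp to Nr1d1 was 0.981 in E5568, 0.658 in E6732, 0.497 in E6578 and 0.346 to 0.402 in the other 5 mice.

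Bhlhe41 (Dec2), a repressor with an E-box in its promoter, took no part in this order. It was 94.2 to 97.5 CPM in E1776, E5231 and E5568 and 82.0 to 90.6 CPM in the 4 controls, and 70.6 CPM in E5248.

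How closely each member mirrored Arntl was then measured across the 8 mice on log2(CPM + 0.1), with exact two-sided permutation of the pairings, adjusted over 9 relations. All 9 Pearson correlations were negative. Dbp was the tightest, with r = -0.94 (exact permutation p = 7e-05, adjusted p = 0.00067) and Spearman's rho = -0.98 (exact permutation p = 0.0004, adjusted p = 0.00357). Ciart had r = -0.91 (exact permutation p = 0.0031, adjusted p = 0.014) and rho = -0.81 (exact permutation p = 0.0218, adjusted p = 0.098). Per3 (r = -0.84), Tef (r = -0.83), Nr1d2 (r = -0.80) and Per2 (r = -0.79) also passed by Pearson's r, with exact permutation p = 0.0103, 0.0119, 0.0202 and 0.0173 and adjusted p = 0.0267, 0.0267, 0.0303 and 0.0303. Their rho values were -0.60, -0.67, -0.74 and -0.62, and by rho only 1 of the 9, Dbp, passed correction (exact permutation p = 0.132, 0.0831, 0.0458 and 0.115 for these 4, adjusted p = 0.170, 0.170, 0.138 and 0.170). Nr1d1 (r = -0.56, exact permutation p = 0.157, adjusted p = 0.202, rho = -0.62, p = 0.115, adjusted p = 0.170), Per1 (r = -0.28, p = 0.487, adjusted p = 0.548, rho = -0.38, p = 0.360, adjusted p = 0.405) and Bhlhe41 (r = -0.14, p = 0.754, adjusted p = 0.754, rho = 0.05, p = 0.935, adjusted p = 0.935) did not pass by either measure.

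Without E5568 and E6732, the 2 mice farthest from the median of Arntl, r stayed at -0.87 for Dbp and -0.95 for Ciart (exact permutation p = 0.00417 and 0.0222, both unadjusted). Without E5568 alone, however, Ciart stood at r = -0.82 and no longer passed (adjusted p = 0.121, exact permutation), where its adjusted p was 0.00926 to 0.121 over all alternatives. With both E5568 and E6732 left out, r moved to -0.08 for Per2, -0.33 for Per3, -0.46 for Nr1d2 and -0.63 for Tef (exact permutation p = 0.851, 0.560, 0.385 and 0.176). The relations of these 4 thus leaned on those 2 mice to unlike degrees, most for Per2 and least for Tef. Leaving out the mice farthest from the Arntl median also narrows its range and leaves fewer mice. That by itself can weaken r, so the values cannot show that a relation was absent among the rest. For Nr1d1, r without both mice was -0.73 (exact permutation p = 0.0667), for Per1 -0.22 and for Bhlhe41 0.25 (p = 0.656 and 0.583). With each gene centred on its genotype mean, r for Dbp was -0.95. A genotype holds too few mice for a correlation of its own, and the labels name no batch. E5386 and E5642, with the muscle genes, lay at the high-Arntl end, and E6732, with the liver genes, at the low-Arntl end. Without E5386 and E5642, r for Dbp was -0.92 (exact permutation p adjusted over 9 relations = 0.075), and all 9 correlations kept their sign. What the muscle and liver RNA contributed to these levels was not tested.

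**Figure D2:**
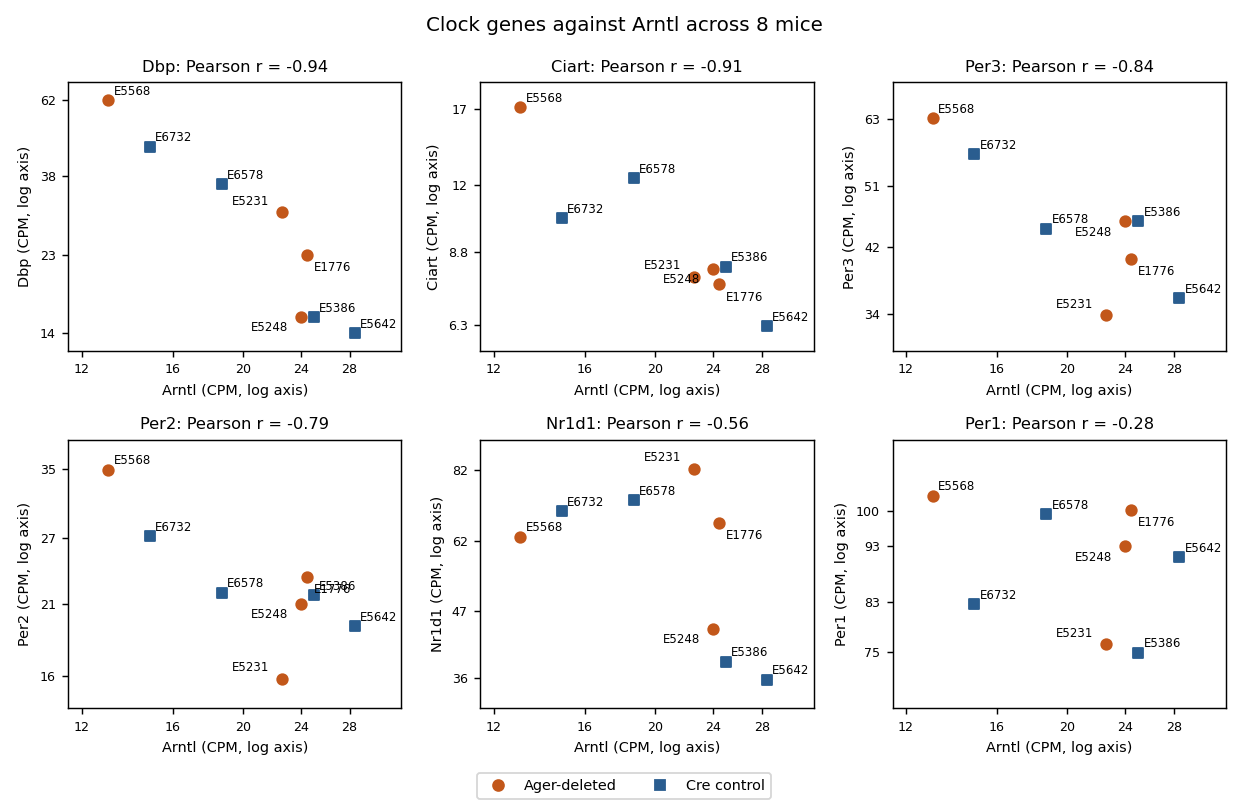
Level of 6 clock genes (vertical axes, CPM, log scale) against Arntl (horizontal axes, CPM, log scale), with 1 point per mouse, circles for Ager-deleted and squares for Cre control mice. Dbp is lower where Arntl is higher (r = -0.94), Ciart is highest in E5568, E6578 and E6732, and Nr1d1 has 5 higher points and 3 lower ones.

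Leaving Arntl aside, 32 of the other 36 pairs of members had a positive r, and the 4 negative ones all involved Bhlhe41. Corrected over all 45 pairs, 4 pairs without Arntl passed by Pearson's r: Per2 with Per3 (r = 0.93, exact permutation p = 0.00104, adjusted p = 0.0234), Ciart with Tef (r = 0.90, p = 0.00337, adjusted p = 0.0353), Nr1d2 with Tef (r = 0.87, p = 0.00392, adjusted p = 0.0353) and Dbp with Ciart (r = 0.85, p = 0.00511, adjusted p = 0.0383). Their Spearman's rho was 0.76 (exact permutation p = 0.0368, adjusted p = 0.220), 0.71 (p = 0.0576, adjusted p = 0.220), 0.90 (p = 0.00456, adjusted p = 0.103) and 0.76 (p = 0.0368, adjusted p = 0.220).

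To place each mouse by 1 value, a clock ratio was formed as log2 Arntl minus the mean log2 of Dbp, Nr1d1, Per1, Per2 and Per3. It rose from -2.23 in E5568 through -1.82 in E6732, -1.36 in E6578, -0.82 in E5231, -0.81 in E1776, -0.58 in E5248 and -0.43 in E5386 to -0.15 in E5642. The lowest mouse was Ager-deleted and the highest a control, and the 4 mice in the middle of the order were 3 Ager-deleted mice and 1 control. By genotype the ratio was -1.11 ± 0.755 in Ager-deleted mice and -0.94 ± 0.780 in controls (SD, n = 4 each). The difference of 0.17 was smaller than the spread within either genotype, and it was -0.20 without E5568, -0.09 without E5642 and -0.48 without both E5386 and E5642. It was larger, at 0.46, 0.35 and 0.31, without E6732, E5248 or E6578, and at 0.27 without E1776 or E5231. Without E5386 it was 0.0020.

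The comparison the study was built for, Cre control against Ager-deleted cords, called no clock gene. Of the 10 members, 0 were called by edgeR's exact test after Benjamini-Hochberg correction (every adjusted p = 1), against 0.0719% of all genes tested, and 0 were called by the quasi-likelihood test (lowest adjusted p = 0.883), against 0.00514%. At an unadjusted p under 0.05 there were also 0 members by either test, where all genes gave 4.26% and 6.71%. The genotypes overlapped for all 10 members, and 3.88% of all genes had no overlap. By DESeq2 and limma-voom, too, 0 members were called. The background share itself was not stable, since the exact test called 14 genes in all, 78 with common and tagwise dispersions, 3 with a mean of at least 1 CPM, and from 3 (without E5231) to 98 (without E6578) with 1 mouse left out. The members called stayed at 0 in each of these. The study itself reported 78 genes at this threshold by the exact test.

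Log2 fold changes are given as control over Ager-deleted. With all 8 mice the largest was that of Nr1d1, 63.9 ± 15.9 CPM in Ager-deleted mice and 54.2 ± 19.8 CPM in controls (SD, n = 4 each), or -0.24 ± 0.26 (SE). It lay between -0.41 (without E6578) and -0.075 (without E5642) with 1 mouse left out. Dbp was 32.6 ± 20.3 CPM against 27.9 ± 15.7 CPM, a log2 fold change of -0.23 ± 0.46 with a 95% interval of -1.26 to 0.80. Its interval was the widest of the members. Arntl was 21.04 ± 5.38 CPM against 21.8 ± 6.12 CPM, a log2 fold change of 0.05 (95% interval -0.46 to 0.56).

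Ciart (-0.13, -0.78 to 0.51), Per2 (-0.08, -0.54 to 0.38), Per3 (-0.01, -0.42 to 0.41) and Nr1d2 (0.10, -0.27 to 0.47) had intervals of middle width. The steadiest genes had the narrowest, with Per1 at -0.10 (-0.34 to 0.14), Tef at -0.02 (-0.30 to 0.26) and Bhlhe41 at -0.02 (-0.23 to 0.20). The median over the 10 members was -0.05, beside -0.01 over all genes tested. Without E5386 and E5642, Dbp stood at 0.34 and Arntl at -0.32, each with the opposite sign, and Nr1d1 at 0.16. Leaving out E5568 alone moved Dbp to 0.28, and leaving out E6732 alone moved it to -0.58.

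**Figure D3:**
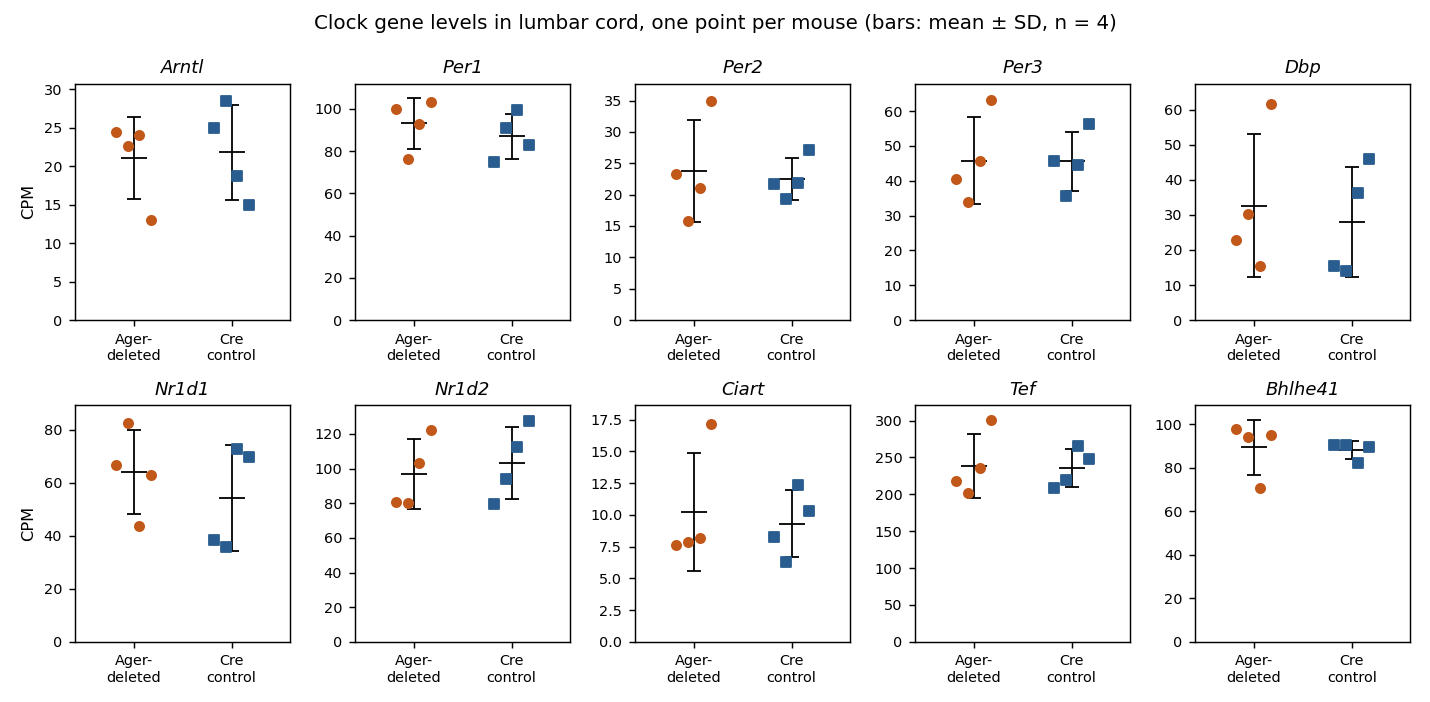
CPM of each clock gene (vertical axes, from 0) in the 4 Ager-deleted and 4 Cre control mice, with 1 point per mouse and bars for the mean ± SD. The genotypes overlap for all 10 genes, and the 1 high point for Dbp and Ciart among Ager-deleted mice is E5568.

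**Figure D4:**
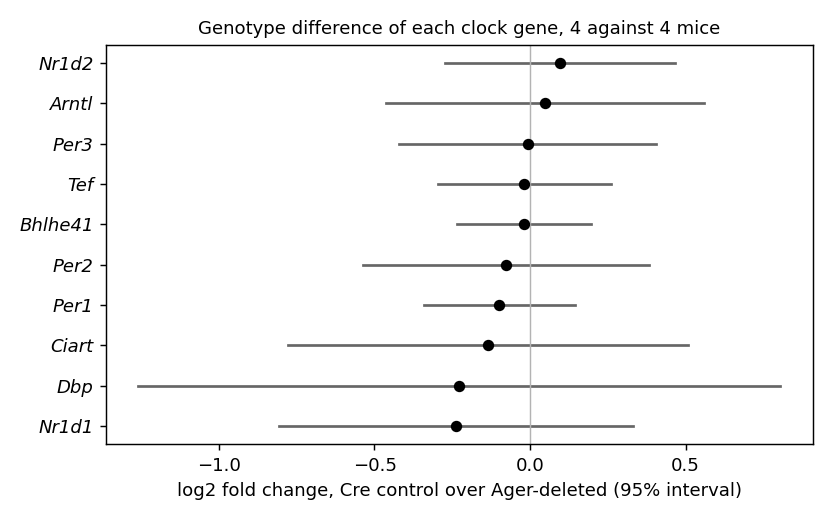
Log2 fold change of each clock gene, control over Ager-deleted (points), with its 95% interval from the quasi-likelihood fit (lines). Every interval takes in 0, and the widest, that of Dbp, runs from -1.26 to 0.80.

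Most of the clock genes differed widely between mice of one genotype. The biological coefficient of variation (BCV), edgeR's estimate of that spread beyond counting noise, was 0.451 for Dbp, 0.293 for Ciart, 0.257 for Nr1d1, 0.234 for Arntl, 0.212 for Per2, 0.192 for Per3 and 0.172 for Nr1d2. The fitted value for genes of the same abundance was 0.110 to 0.182 for these 7. Divided by that value, the BCV of Dbp was 3.63, higher than in 99.6% of the 19470 genes, and each of these 7 members was above at least 96.2% of genes. Tef (1.15 times the fitted value), Per1 (1.08) and Bhlhe41 (0.979) were closer to genes like them. In all, 9 of 10 members lay above the fitted value, as did 20.6% of all genes. The spread reached both genotypes: Dbp spanned 3.98-fold among Ager-deleted mice and 3.28-fold among controls, Nr1d1 1.89-fold and 2.04-fold, and Arntl 1.87-fold and 1.91-fold.

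**Figure D5:**
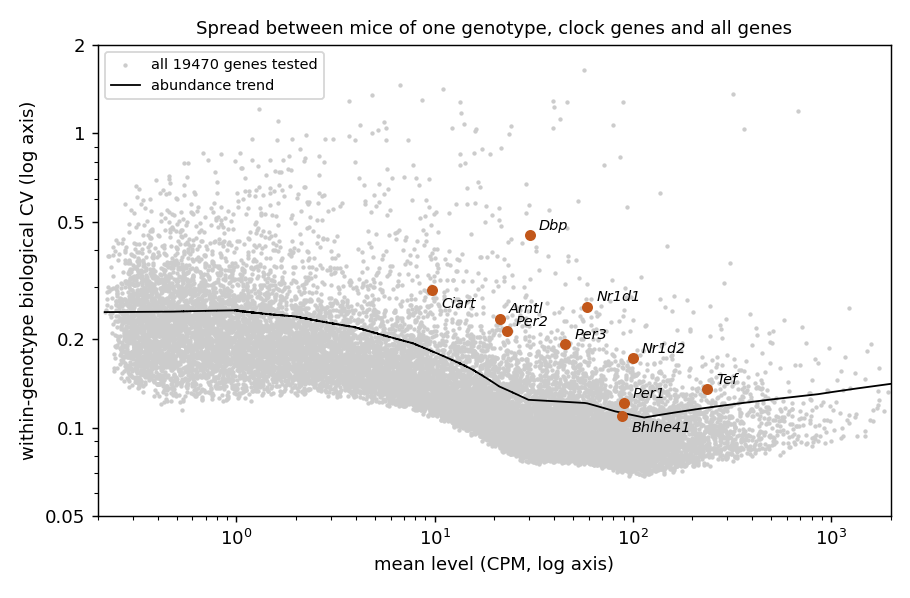
Biological coefficient of variation within genotype (vertical axis, log scale) against mean level (horizontal axis, CPM, log scale) for all genes tested (grey), with the abundance trend (line) and the 10 clock genes (orange). Dbp (0.451) lies farthest above the line, and Per1 and Bhlhe41 lie on it.

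The genes whose pattern over the 8 mice was most like the clock ratio were found among 16081 genes with a mean of at least 1 CPM, by Pearson's r, as a description. Among the highest outside the list were Atn1 (0.96), Gm45447 (0.94), Npas2 (0.94) and Id2 (0.93). Npas2, a paralog of Clock that pairs with Arntl, was 10.003 CPM in E5568, 11.9 CPM in E6732 and 18.4 CPM in E6578, and 20.6 to 26.8 CPM in the other 5 mice, the same split as Arntl. The 5 lowest were Dcaf7 (-0.96), Sec24d (-0.90), Dnajc4 (-0.90), Sgk2 (-0.90) and Kazald1 (-0.90). Dcaf7, at 178 to 192 CPM, differed little between mice in spite of its r. Of the members, Dbp had the lowest value of all 16081 genes and Arntl the highest, both of them used in the ratio, whereas Ciart, not used in it, had the third lowest (-0.91).

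A further 24 clock and clock output genes were all tested, and 0 were called by the exact test. Their median log2 fold change was 0.02, with 13 above and 11 below 0. Genotypes did not overlap for 3 of the 24, where 3.88% of all genes tested had no overlap. Csnk1d and Csnk1e, kinases that phosphorylate PER proteins, were lower in controls by a small margin (log2 fold changes of -0.09 ± 0.05 and -0.07 ± 0.05 (SE), both adjusted p = 1, edgeR exact test). Nampt, a clock-controlled enzyme of NAD synthesis, was 63.1 to 74.1 CPM in Ager-deleted mice and 74.7 to 82.4 CPM in controls, with a log2 fold change of 0.19 ± 0.07 (unadjusted p = 0.0300, adjusted p = 1, edgeR exact test).

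Among core genes of this wider list, Clock held a narrow range of 106 to 132 CPM and Cry1 of 17.97 to 23.4 CPM. Npas2 had a BCV of 0.291 against a fitted 0.143, and its log2 fold change was -0.0046 ± 0.29 (SE). The r with the clock ratio was 0.74 for Nfil3, a repressor that competes at D-boxes, -0.65 for Bhlhe40, -0.62 for Hlf, the third member of the Dbp family, and -0.61 for Cry2. Other genes of the list followed the ratio less, with r = 0.46 for Clock, 0.34 for Rora, 0.10 for Arntl2, 0.07 for Csnk1e and 0.05 for Cry1.

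Signals that can reset peripheral clocks were described by 3 short lists. Of 8 genes that respond to temperature, 0 were called, with a median log2 fold change of -0.12, and 2 of the 8 had no overlap, where the share over all genes was 3.88%. These were Dnajb1 (53.3 ± 5.82 CPM in Ager-deleted mice, 44.2 ± 2.56 CPM in controls, log2 fold change -0.27 ± 0.08 (SE), adjusted p = 0.764, edgeR exact test) and Hspa8 (1050 ± 62.0 and 964 ± 16.2 CPM, -0.12 ± 0.07 (SE), adjusted p = 1). Both encode chaperones. The cold-inducible Cirbp was 49.7 CPM in E1776 and 83.7 CPM in E5568, and its r with the clock ratio was -0.64. For the other genes of this list r was -0.44 (Rbm3), -0.12 (Hsp90aa1), -0.05 (Hspa8), 0.10 (Dnajb1), 0.16 (Hspa1a), 0.17 (Hspa1b) and 0.26 (Hsph1).

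Of 12 glucocorticoid-responsive genes, 0 were called and 0 were free of overlap, with a median log2 fold change of 0.05. The largest differences were Pdk4 (0.77), Zbtb16 (-0.58) and Sult1a1 (0.53). Pdk4 was 132 CPM in E5642 and 59.5 CPM in E5386, the controls with muscle RNA, against 39.5 and 30.7 CPM in the other controls and 30.03 to 44.2 CPM in Ager-deleted mice. Sult1a1 was also highest in E5642, at 42.2 CPM. The part of the muscle RNA in these values was not tested. They too were spread widely between mice (Fkbp5 had a BCV of 0.307 against a fitted 0.121), but in another order: Fkbp5 was 86.3 CPM in E5568 and 84.8 CPM in E5642, the opposite ends of the clock ratio, and its r was -0.16. Zbtb16 was nearer, with r = -0.76. Of 11 immediate early genes, 0 were called and 0 were free of overlap, with a median of 0.04, and the largest differences were Dusp1 (0.30), Egr1 (0.24) and Fosb (-0.13).

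Exons of some members overlap those of a gene on the opposite strand in GENCODE M21 on GRCm38. The kit keeps strand, but the strand setting of the counting is not given in the sources used here, so these counts are uncertain by what they may share. For Dbp (chr7:45705088-45710203, plus strand) the overlap with Sphk2 was 539 bases, 18.01% of its exons, and Sphk2 had a mean of 30.5 CPM. For Nr1d1 (chr11:98767932-98775333, minus strand) the overlap with Thra was 263 bases, 8.55% of its exons. Thra was much the more abundant at 324 CPM, and its levels, 308 to 363 CPM in Ager-deleted mice and 300 to 322 CPM in controls, spanned less than those of Nr1d1. Bhlhe41 (chr6:145858243-145865558, minus strand) shared 1280 bases, 19.0% of its exons, with Gm43909, which had a mean of 3.01 CPM. Smaller overlaps were those of Tef with Gm17597 (193 bases, 2.45% of its exons) and of Arntl with Gm45355 (33 bases, 0.439% of its exons).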

How the data were processed

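RNA was sequenced from lumbar spinal cord of 4 Ager-deleted and 4 Cre control mice, grouped by the genotype in the labels. The authors deposited raw counts per gene (Trimmomatic 0.36, STAR 2.7.3a, featureCounts of Subread 1.6.3 and edgeR 3.26.8 are named in the submitters' processing notes, with mm10 and, in the study's methods, GENCODE M25). The deposited log2 table holds log2 TMM-normalized CPM and served as a check of filter and normalization. Columns were matched to mice by ID, and no replicates were pooled.

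Genes were filtered with filterByExpr (minimum 10 counts), TMM-normalized and tested with edgeR 4.0.16 (R 4.3.3) by the exact test, with the default trended dispersions of estimateDisp (the study names the exact test and no dispersion setting), and by the quasi-likelihood test, with Benjamini-Hochberg adjustment over all 19470 genes and a threshold of 0.05. The quasi-likelihood fit gave the standard errors and 95% intervals. DESeq2 1.42.0 and limma 3.58.1 were alternatives. Totals of 31148047 to 40324897 counts set the depth, and floors of 3 counts cover counting error only. Correlations used log2(CPM + 0.1) in scipy 1.17.1 with exact permutation of pairings; the clock ratio was given no test. Each sample is 1 mouse.

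The members and gene lists were chosen with earlier results of these data known. Named genes are all members, genes of the lists that were called or did not overlap (for 3 lists also up to 3 with the largest change), Ager, genes whose exons overlap a member, and the 5 highest and lowest in r with the clock ratio, of which 1 is not reported here. Clock, Cry1, Cry2, Rora, Arntl2, Nfil3, Hlf, Bhlhe40, Cirbp, Fkbp5 and the values of Zbtb16 beyond its fold change were picked for description after their values were seen. The r with the clock ratio is given for every gene of the temperature list. Exon lengths and overlaps come from GENCODE M21 (GRCm38, that is mm10) and promoters from RefSeq.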

Additional observations from a re-analysis of the deposited data

Results flagged for a closer look

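In 22 groups of 4 mice (10 genes and the clock ratio in each genotype), 5 held a mouse far from the other 3 by Dixon's criterion, which chance alone meets in about 1 group in 20. The groups are not independent, since the genes move together and share the same mice. In the Ager-deleted group E5568 stood apart 3 times: Arntl was 13.1 CPM against 22.6 to 24.5 CPM in the other 3, Ciart was 17.2 CPM against 7.59 to 8.15 CPM, and the clock ratio was -2.23 against -0.82 to -0.58. Bhlhe41 was low in the Ager-deleted mouse E5248, at 70.6 CPM against 94.2 to 97.5 CPM. It was also low in the control E6578, at 82.0 CPM against 89.5 to 90.6 CPM.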

How the results depend on the processing

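No member was called under any scaling, filter, dispersion, tool or left-out mouse tried. Leaving out 1 mouse at a time changed the sign of the log2 fold change for 8 members, with ranges of Arntl -0.12 to 0.19, Per2 -0.23 to 0.17, Per3 -0.13 to 0.19, Dbp -0.58 to 0.28, Nr1d2 -0.019 to 0.23, Ciart -0.30 to 0.24, Tef -0.092 to 0.11, Bhlhe41 -0.12 to 0.026. Nr1d1 (-0.41 to -0.075) and Per1 (-0.18 to -0.027) kept their sign. With the muscle level added to the quasi-likelihood model, 7 log2 fold changes changed sign: Arntl -0.27, Per2 0.0029, Per3 0.093, Dbp 0.24, Nr1d1 0.18, Ciart 0.10 and Tef 0.083. Without E5386 and E5642, a choice made after seeing the data, the same 7 genes changed sign, at -0.32, 0.054, 0.15, 0.34, 0.16, 0.16 and 0.11 in that order. Per3 was 0.016 by limma-voom. Scaling, filters and dispersion choices changed no sign, and the causes of the changes were not tested. The number of members without overlap was 0 to 1 with 1 mouse left out, the 1 being Bhlhe41 without E5248. The clock ratio difference, control minus Ager-deleted, was -0.20 to 0.46 with 1 mouse left out (-0.20 without E5568), -0.48 without E5386 and E5642, and 0.09 to 0.32 with other denominators. The number of members with negative r against Arntl was 7 to 9 with 1 mouse left out. The r itself ranged from -0.48 to 0.046 for Per1, from -0.26 to 0.093 for Bhlhe41 and from -0.97 to -0.91 for Dbp. Without E5568 alone, Per2, Per3, Nr1d2, Ciart and Tef no longer passed correction for their correlation with Arntl, and without E6732 alone Per2, Per3 and Nr1d2 did not. Nr1d2 also lost it without E1776, E5386 or E6578. With 6 mice, without E5386 and E5642, no relation passed (lowest adjusted p = 0.075, exact permutation). Pseudocounts of 1 and 0.01 CPM, other size factors and centring changed no call of a correlation. No paired analysis was possible because the labels give mouse IDs and no shared replicate numbers.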
